A study of Mus musculus with 12 samples.

Results

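Hox genes were examined in fibroblasts of neonatal mouse back skin. All genes named Hoxa, Hoxb, Hoxc or Hoxd followed by a number were taken, without antisense genes or pseudogenes, and 36 were measured, among 22180 genes tested in all. The clusters contributed 9 Hoxa genes (chromosome 6), 10 Hoxb genes (chromosome 11, 96194316 to 96368254), 9 Hoxc genes (chromosome 15, 102921131 to 103036856) and 8 Hoxd genes (chromosome 2, 74668225 to 74765142; GRCm38.p6 throughout). Hoxa11 and Hoxd4 had only probe sets shared with another symbol and were not analysed. RNA came from dermis at postnatal day 2 and was hybridised to 12 whole-transcript arrays. The labels give the genotype as wild-type, while the study describes sorting cells by the nuclear green fluorescence of a Pdgfra reporter line, Pdgfra being a receptor of fibroblasts. The 4 populations, with 3 arrays each, were CD26+ cells (in the study CD26+Sca1-, its papillary fibroblasts of the upper dermis), Dlk1+Sca1- cells (its reticular fibroblasts of the lower dermis), and Dlk1+Sca1+ and Dlk1-Sca1+ cells (its pre-adipocytes). Limbs, tail and head had been removed before the skin was taken, and the study describes no division of it by level along the body. No positional contrast was therefore part of the design. The comparison is between fibroblast types of skin that spans several such levels, and whether the populations differ in their share of them was not tested.

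Hox proteins are homeodomain transcription factors that tell cells where they lie along the body axis. Within each cluster the genes are lined up in the order in which they are used: those with low paralog numbers act towards the head and those with high numbers towards the tail. Fibroblasts of human skin keep such a code in culture according to the site they came from. Hox proteins bind DNA together with Pbx and Meis cofactors, and silent stretches of a cluster are held shut by Polycomb complexes, whose enzyme Ezh2 methylates histones. The members are described below as anterior (paralog groups 1 to 3), central (4 to 8) and posterior (9 to 13).

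The clusters also encode microRNAs, which are shown because their seeds (bases 2 to 8, in capitals) group the ones that can be compared across clusters. The sequences are RefSeq mature forms on GRCm38.p6, written 5′ to 3′. The miR-10 genes lie on chromosomes 2 and 11 and share 1 seed, the miR-196 genes lie on chromosomes 6, 11 and 15 and share another, and miR-615 lies within the span of Hoxc5. In mouse, Hoxb8 is a known target of miR-196.
miR-10b-5p: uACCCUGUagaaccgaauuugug
miR-10a-5p: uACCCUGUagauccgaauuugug
miR-196a-5p: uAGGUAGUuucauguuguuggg
miR-196b-5p: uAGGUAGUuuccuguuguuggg
miR-615-3p: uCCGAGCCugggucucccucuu

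Promoter sequence is shown for the called gene that had a RefSeq window, Hoxc4, and for Hoxa5, whose levels were ordered differently across the populations. Each run is the 250 bases before a transcript start, with CG dinucleotides in capitals. The Hoxc4 window (chr15:103034145-103034394, + strand, GRCm38.p6) lies inside the gene's span of 103018097 to 103036856, before a downstream start, and the Hoxa5 window is at chr6:52204588-52204837 on the - strand.
Hoxc4: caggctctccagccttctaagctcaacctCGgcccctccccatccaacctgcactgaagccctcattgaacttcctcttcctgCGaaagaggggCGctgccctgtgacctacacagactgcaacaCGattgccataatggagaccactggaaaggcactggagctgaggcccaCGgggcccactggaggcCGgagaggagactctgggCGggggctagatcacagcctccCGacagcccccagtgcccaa
Hoxa5: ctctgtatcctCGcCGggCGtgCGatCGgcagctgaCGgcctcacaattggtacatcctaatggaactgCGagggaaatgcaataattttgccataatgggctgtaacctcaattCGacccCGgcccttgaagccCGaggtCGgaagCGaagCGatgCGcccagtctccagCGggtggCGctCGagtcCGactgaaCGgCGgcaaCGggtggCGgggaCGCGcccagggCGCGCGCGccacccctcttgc

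The Hoxc4 window held 8 CG dinucleotides and the Hoxa5 window 28, counts reached by 43.0% and 7.61% of all 32851 promoter windows. Windows were at hand for 20 of the 36 measured Hox genes. The letters TGATNNAT, a form of the joint Hox and Pbx motif, stood on either strand in 4 of 24 Hox windows of 300 bases (Hoxd11, Hoxa2, Hoxb8 and Hoxb1) against 8.85% of all windows. The letters TGACAG, a Meis motif (neither string contains the other), stood in 2 of them (Hoxa2 and Hoxa3) against 19.2% of all windows. The Hoxc4 and Hoxa5 windows held neither.

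The arrays had medians of 5.38 to 5.51 on the log2 scale and correlated across genes at Pearson's r of 0.958 to 0.983. The study left out 1 Dlk1-Sca1+ sample that carried too much Dlk1 without giving its number. Replicate 3 best fitted that description (Dlk1 8.69 against 8.09 and 8.32) and was left out of the tests, so 11 arrays were fitted. It is printed last where the arrays of that population are listed. Fibroblast markers were all measured (12 of 12, array means 10.26 to 10.57), and Dlk1 followed the gates among the arrays fitted. Dpp4, which encodes CD26, averaged 10.3 in CD26+, 9.22 in Dlk1+Sca1+ and 8.47 in Dlk1+Sca1- cells, but also 10.05 in Dlk1-Sca1+ cells, whose arrays overlapped those of CD26+. Leukocyte markers averaged 5.68 to 5.83 on the Dlk1+Sca1+ arrays and 5.0 to 5.21 on all others. No signal above background is given per probe set. As a guide, 95% of 1390 olfactory and vomeronasal receptor genes, most of which serve sensory tissues, averaged under 5.56. Probe sets differ in brightness, so levels are not ranked between genes.

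Most central genes were above this guide. It was passed by 11 of 14 central, 5 of 7 anterior and 6 of 15 posterior genes, 22 of 36 in all, and by none of the 4 paralog group 13 genes, which pattern the tail, limb tips and genitals. The array medians, 5.38 to 5.51, lay just under the guide. The share of all genes that passed the guide was not counted. Whether Hox genes passed it more often than other genes is therefore not known here. In the Hoxc cluster the mean log2 value over the 12 arrays was 8.60 for Hoxc4, 6.46 for Hoxc5, 8.55 for Hoxc6, 8.13 for Hoxc8, 7.27 for Hoxc9, 7.43 for Hoxc10 and 5.73 for Hoxc11, while Hoxc12 (4.62) and Hoxc13 (5.16) were under the guide. In the Hoxb cluster Hoxb2 (6.09), Hoxb3 (6.36), Hoxb4 (6.27), Hoxb5 (6.48), Hoxb6 (7.73), Hoxb8 (5.81) and Hoxb9 (6.86) were above it, and Hoxb1 (4.86), Hoxb7 (4.89) and Hoxb13 (4.22) under it. In the Hoxa cluster Hoxa2 (5.62), Hoxa6 (6.87), Hoxa7 (5.84) and Hoxa9 (7.26) were above it, and Hoxa3 (4.90), Hoxa4 (4.95), Hoxa5 (5.11), Hoxa10 (5.12) and Hoxa13 (4.60) under it. In the Hoxd cluster Hoxd1 (6.01), Hoxd3 (5.83), Hoxd8 (7.65) and Hoxd10 (6.23) were above it, and Hoxd9 (4.28), Hoxd11 (5.02), Hoxd12 (5.34) and Hoxd13 (4.67) under it. A value under the guide is not an absence of RNA, since a dim probe set may give the same reading. Spans of neighbouring genes overlap in 6 pairs, such as Hoxb3 with Hoxb4 and Hoxd10 with Hoxd11, so that a probe set there may read either transcript. The heat map shows each value relative to its gene's mean.

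**Figure D1:**
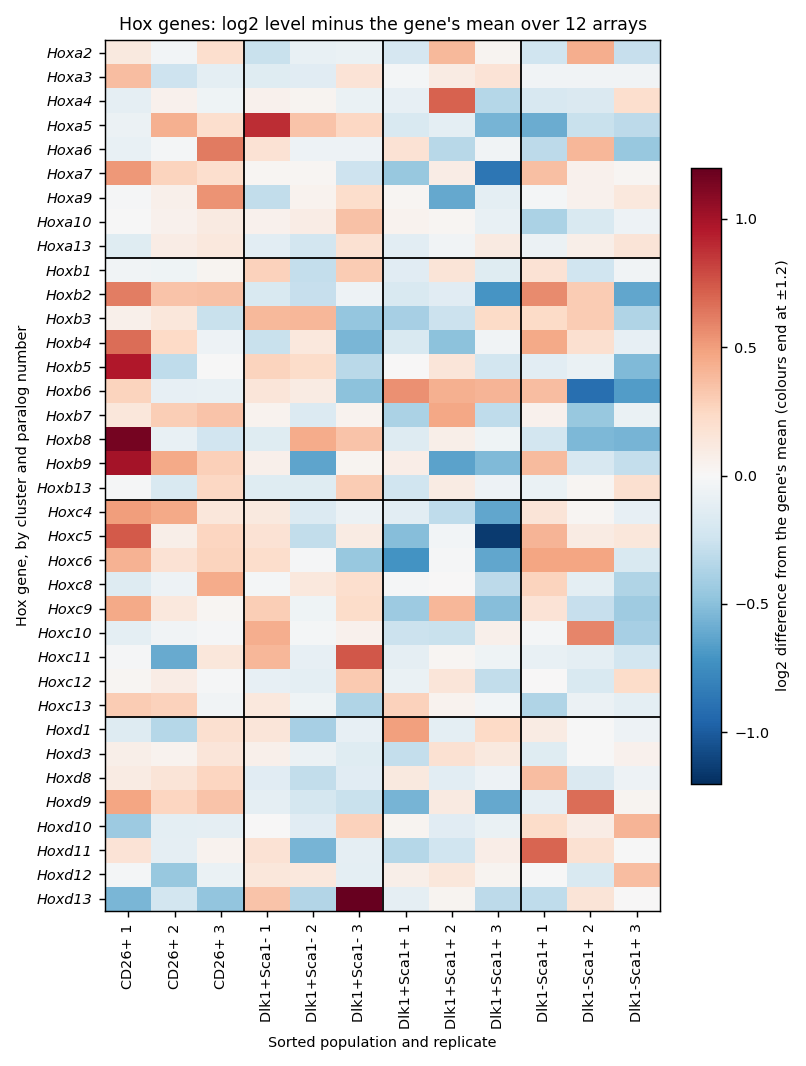
Log2 value of each of the 36 Hox genes (rows, by cluster and paralog number) on each of the 12 arrays (columns, by population and replicate), minus the gene's mean over the 12 arrays; red is above and blue below the mean. Hoxc4 to Hoxc6 are mostly blue on the Dlk1+Sca1+ arrays and red on the CD26+ arrays, and Hoxd13 stands out on Dlk1+Sca1- replicate 3.

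Of the 6 pairwise comparisons, 1 gave called Hox genes. In limma's test with Benjamini-Hochberg adjustment over all genes, Hoxb2 and Hoxc4 had more signal in CD26+ cells than in Dlk1+Sca1+ cells, 2 of 36 (5.56%), where 3.72% of all genes were called and 2.05% were called higher in CD26+. That share is near the background and is a result about these 2 genes, not about the family. No Hox gene was called between CD26+ and Dlk1+Sca1- (1.10% of all genes called), Dlk1+Sca1+ and Dlk1+Sca1- (1.24%), Dlk1-Sca1+ and Dlk1+Sca1- (0.591%), CD26+ and Dlk1-Sca1+ (0.0857%) or Dlk1+Sca1+ and Dlk1-Sca1+ (1.19%), nor by the F test over the 4 populations (3.23%). At an unadjusted p under 0.05 the Hox counts in that order were 8 of 36 (12.6% of all genes), 1 of 36 (11.6%), 5 of 36 (12.4%), 1 of 36 (5.52%), 9 of 36 (11%) and, for the F test, 8 of 36 (15.3%). Between CD26+ and Dlk1+Sca1+ the count was 9 of 36 (14.7% of all genes), all 9 of them higher in CD26+ (8.03% of all genes in that direction), and arrays did not overlap for 10 of 36 genes (20.8% of all genes). The 95% intervals of single genes reached 0.31 to 1.00 log2 either side, so differences smaller than these could not be seen and a missed threshold does not show equal levels.

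Hoxc4, a central gene that patterns the neck and upper trunk, was the most firmly separated between CD26+ and Dlk1+Sca1+ cells. CD26+ arrays read 9.10, 9.05 and 8.73, Dlk1+Sca1+ arrays 8.47, 8.29 and 7.97, Dlk1+Sca1- arrays 8.71, 8.43 and 8.53, and Dlk1-Sca1+ arrays 8.75, 8.62 and 8.50 for the replicate left out. Each CD26+ array lay above each Dlk1+Sca1+ array, and the other populations lay between their means. The log2 difference was 0.72 (SE 0.16, 95% interval 0.37 to 1.06, adjusted p = 0.0245), a 1.64-fold change. Hoxb2, an anterior gene needed for the hindbrain, read 6.70, 6.43 and 6.44 on the CD26+ arrays, 5.90, 5.95 and 5.38 on the Dlk1+Sca1+ arrays and 5.90, 5.81 and 6.03 on the Dlk1+Sca1- arrays. The Dlk1-Sca1+ arrays read 6.65, 6.39 and, for the replicate left out, 5.46. Its CD26+ arrays stood above all 6 arrays of the Dlk1+ populations, while Dlk1-Sca1+ was split by the array left out. The log2 difference between CD26+ and Dlk1+Sca1+ was 0.78 (SE 0.19, 95% interval 0.38 to 1.18, adjusted p = 0.0353), a 1.72-fold change, and that between CD26+ and Dlk1+Sca1- was 0.61 (SE 0.19, adjusted p = 0.171).

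Both calls were near the threshold. Neither gene was called when any of 3 arrays was left out, CD26+ replicate 1, CD26+ replicate 2 and Dlk1+Sca1+ replicate 3 in that order, with adjusted p-values of 0.156, 0.0756 and 0.14 for Hoxb2 and 0.124, 0.0962 and 0.107 for Hoxc4. Hoxc4 was also lost without Dlk1+Sca1+ replicate 2 (0.0564), and Hoxb2 without CD26+ replicate 3 (0.08), without Dlk1+Sca1+ replicate 1 (0.0562) and without the Dlk1+Sca1- array of replicate 1 (0.051). With all 12 arrays Hoxb2 was not called (0.148) and Hoxc4 was (0.0255). The difference kept its direction under each of 19 alternatives, from 0.60 to 0.89 for Hoxb2 and from 0.58 to 0.83 for Hoxc4. Beside these differences, 4 of 12 leukocyte markers were called lower in CD26+ than in Dlk1+Sca1+ cells (Adgre1, Mrc1, C1qb and Fcer1g), among them Mrc1, a macrophage receptor, at a log2 difference of -1.35. Between these populations 3.72% of all genes were called, counting both directions. An unadjusted p under 0.05 was reached by 9 of the 12 leukocyte markers (14.7% of all genes). The highest mean was in Dlk1+Sca1+ cells for 10 of the 12 (26.3% of all genes). Ptprc, which all leukocytes carry, read 3.07 to 3.57 on all arrays. Of the other lists, 1 of 12 fibroblast markers was called between these populations, Fap, a surface protease of activated fibroblasts. Its log2 difference was -1.76, with an adjusted p of 0.000598 in limma's test. Called too were 1 of 15 muscle markers (Des, higher in CD26+), 1 of 8 endothelial (Tek, lower) and 1 of 8 pericyte (Kcnj8, lower). Of keratinocyte markers 0 of 8 were called, and of Schwann cell and melanocyte markers 0 of 7. An unadjusted p under 0.05 in limma's test was reached by 5 of 8 pericyte, 3 of 12 fibroblast, 2 of 15 muscle and 1 of 8 endothelial markers. It was reached by 2 of 8 keratinocyte and 0 of 7 Schwann cell and melanocyte markers, against the same 14.7% of all genes. Keratinocyte markers averaged 5.12 to 6.33 on the CD26+ arrays and 5.10 to 5.62 elsewhere. On CD26+ replicates 1, 2 and 3 Krt14 read 5.57, 6.49 and 8.33, and Krt15 read 5.12, 6.64 and 8.28. On the arrays of other populations they reached at most 6.77 and 6.80. Krt10 and Cdh1 instead had lower means in CD26+ (6.14 and 5.14) than in Dlk1+Sca1+ cells (6.75 and 5.18). The part of these markers in the Hox differences was not tested. In bulk RNA fewer cells of a type and less RNA per cell cannot be told apart.

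**Figure D2:**
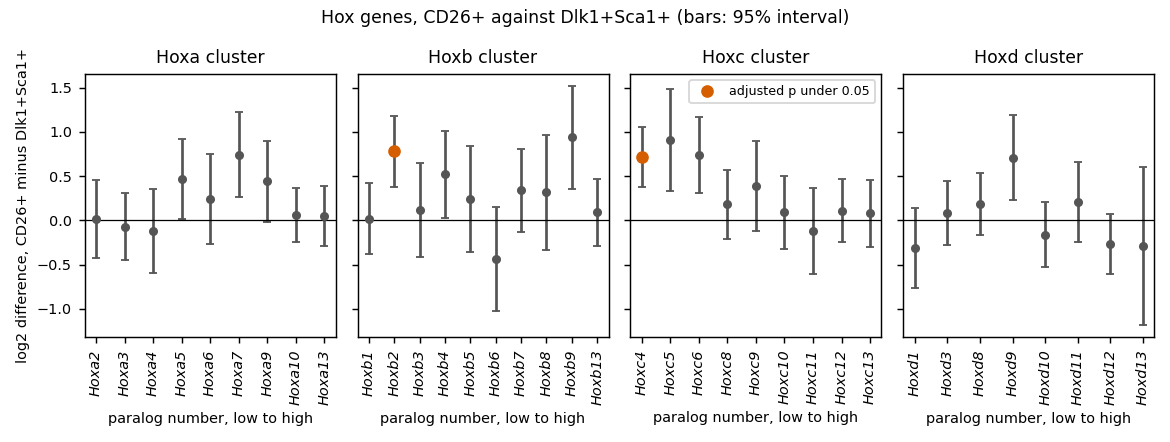
Log2 difference, CD26+ minus Dlk1+Sca1+, of each measured Hox gene by cluster and paralog number, with bars for the 95% interval of the fit. The called genes, Hoxb2 (0.78) and Hoxc4 (0.72), are orange, and the Hoxc differences run from 0.72 at Hoxc4 and 0.91 at Hoxc5 to 0.08 at Hoxc13.

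The neighbours of Hoxc4 pointed the same way at its end of the cluster. Along the Hoxc cluster the log2 difference between CD26+ and Dlk1+Sca1+ was 0.72 at Hoxc4, 0.91 at Hoxc5 (SE 0.27, adjusted p = 0.0916) and 0.74 at Hoxc6 (SE 0.20, adjusted p = 0.0657). It was 0.18 at Hoxc8, 0.39 at Hoxc9, 0.09 at Hoxc10, -0.12 at Hoxc11, 0.11 at Hoxc12 and 0.08 at Hoxc13. Hoxc5 and the following genes were picked out after their values were seen, other than Hoxc6, which was named for its F test. Hoxc6, a marker of thoracic identity, read 8.96, 8.72 and 8.81 on the CD26+ arrays, 7.83, 8.53 and 7.92 on the Dlk1+Sca1+ arrays, 8.76, 8.53 and 8.09 on the Dlk1+Sca1- arrays, and 9.02, 9.02 and 8.36 on the Dlk1-Sca1+ arrays, the last being the one left out. Dlk1+Sca1+ replicates 1 and 3 were the lowest of the 12. Its difference between Dlk1+Sca1+ and Dlk1-Sca1+ was -0.93 (SE 0.23, adjusted p = 0.0729), or -0.71 (adjusted p = 0.263) with all 12 arrays. Without the 40% dimmest genes Hoxc6 was called in both comparisons. Of the genes then kept, 7.24% were called between CD26+ and Dlk1+Sca1+, against 3.72% with all genes kept. Both comparisons of Hoxc6 share the Dlk1+Sca1+ arrays.

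Besides Hoxb2, the genes outside the Hoxc cluster that lay furthest apart between CD26+ and Dlk1+Sca1+ were Hoxb9, Hoxa7 and Hoxd9. Hoxb9, a posterior gene of the thoracic region, read 7.86, 7.32 and 7.15 on the CD26+ arrays, 6.94, 6.22 and 6.33 on the Dlk1+Sca1+ arrays, 6.92, 6.23 and 6.90 on the Dlk1+Sca1- arrays, and 7.24, 6.67 and 6.58 on the Dlk1-Sca1+ arrays. CD26+ was above both Dlk1+ populations without overlap, and it overlapped Dlk1-Sca1+. The log2 difference between CD26+ and Dlk1+Sca1+ was 0.94 (SE 0.27, adjusted p = 0.0799). Hoxd9, which was under the olfactory guide, read 4.75, 4.54 and 4.62 on the CD26+ arrays, 3.72, 4.39 and 3.67 on the Dlk1+Sca1+ arrays, 4.17, 4.07 and 4.01 on the Dlk1+Sca1- arrays, and 4.17, 4.95 and 4.31 on the Dlk1-Sca1+ arrays. Its difference was 0.71 (SE 0.22, adjusted p = 0.117). Hoxa7, chosen after its values were seen, differed by 0.74 (SE 0.22, adjusted p = 0.0987). Hoxb6 ran the other way, at -0.44 (SE 0.27, adjusted p = 0.529).

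**Figure D3:**
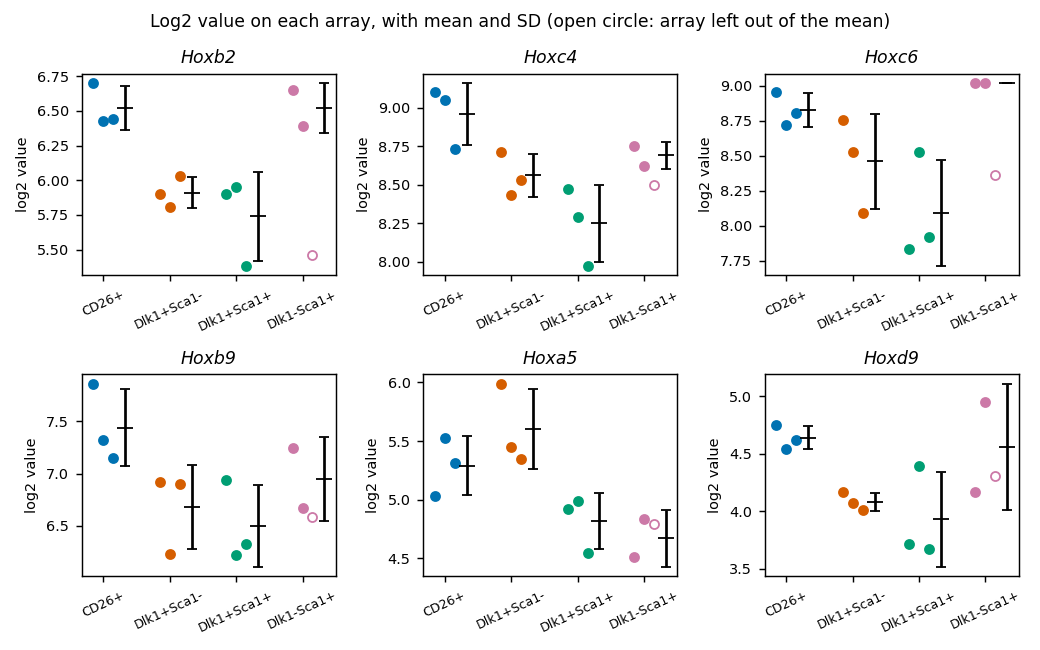
Log2 value of 6 Hox genes on each array (points, by population), with bars for the mean and SD of the arrays fitted and an open circle for the Dlk1-Sca1+ array left out. CD26+ points lie above all Dlk1+Sca1+ points for each of the 6 genes, but their choice by F test p on these arrays favoured separation. Arrays of these 2 populations did not overlap for 10 of 36 Hox genes, Hoxb6 and Hoxd12 being lower in CD26+, and for 20.8% of all genes. Hoxa5 is highest in Dlk1+Sca1- cells.

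Over the whole family, Dlk1+Sca1+ cells most often had the lowest mean and CD26+ cells the highest. Dlk1+Sca1+ had the lowest mean of the 4 populations for 17 of 36 Hox genes (47.2%), against 24.2% of all genes, and CD26+ had the highest for 17 of 36 (47.2%), against 23.8% of all genes. With all 12 arrays the counts were 17 and 18 of 36. Averaged over the 36 genes, each minus its mean over the arrays, CD26+ replicates 1, 2 and 3 stood at 0.2, 0.03 and 0.11. Dlk1+Sca1+ replicates 1, 2 and 3 stood at -0.12, -0.0 and -0.2, so the replicate 2 arrays hardly differed. Among the 14 central genes CD26+ was lowest for none and highest for 8. CD26+ was also lowest for none of the 7 anterior genes and highest for 2 of them. Among the 15 posterior genes CD26+ was lowest for 4 and highest for 7, and among all genes lowest for 23.4% and highest for 23.8%. The median log2 difference between CD26+ and Dlk1+Sca1+ was 0.15 over the 36 Hox genes, 0.33 over the central genes, 0.09 over the posterior genes and 0.02 over the anterior genes, and -0.01 over all genes. By cluster it was 0.28 for Hoxb, 0.18 for Hoxc, 0.06 for Hoxa and -0.04 for Hoxd. The cluster medians leaned on single arrays: without CD26+ replicate 1 Hoxb was 0.09, Hoxa 0.13 and Hoxd 0.02, and Hoxa was 0.02 without CD26+ replicate 3 and, with replicates 2 and 3 of Dlk1+Sca1+ left out in turn, 0.18 and 0.11. Hoxd stayed between -0.09 and 0.02 and Hoxc moved by less than 1.5 times when any 1 array was left out, and the central median stayed between 0.29 and 0.43. The anterior median, near 0, ran from -0.07 without Dlk1+Sca1+ replicate 1 to 0.12 without Dlk1+Sca1+ replicate 2. These medians are small beside the 95% interval of a gene, typically 0.45 either side, and neighbours in a cluster are not independent. The Hox median was 0.09 between CD26+ and Dlk1+Sca1-, -0.13 between Dlk1+Sca1+ and Dlk1+Sca1-, 0.07 between CD26+ and Dlk1-Sca1+, 0.01 between Dlk1-Sca1+ and Dlk1+Sca1- and -0.05 between Dlk1+Sca1+ and Dlk1-Sca1+.

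Hoxa5, a central gene that patterns the neck, lung and upper thorax, was ordered differently from Hoxb2 and Hoxc4. The order of its means was shared by Hoxa10, at 5.29 in Dlk1+Sca1-, 5.17 in CD26+, 5.11 in Dlk1+Sca1+ and 4.84 in Dlk1-Sca1+ cells. Hoxa5 read 5.99, 5.45 and 5.35 on the Dlk1+Sca1- arrays, 5.03, 5.53 and 5.31 on the CD26+ arrays, 4.92, 4.99 and 4.55 on the Dlk1+Sca1+ arrays, and 4.51, 4.84 and 4.79 on the Dlk1-Sca1+ arrays. All 6 arrays of the Sca1+ populations lay below all 6 of the others. The log2 difference from Dlk1+Sca1- was -0.78 in Dlk1+Sca1+ cells (SE 0.21, adjusted p = 0.111) and -0.92 in Dlk1-Sca1+ cells (SE 0.23, adjusted p = 0.11), and the adjusted p of the F test was 0.0847, so none passed the threshold. The gene's mean was under the olfactory guide, and its span lies within that of Hoxa3. Hoxb2, by contrast, had an F test at an adjusted p of 0.0573, Hoxc6 at 0.0863, Hoxc4 at 0.1, Hoxb9 at 0.214 and Hoxd9 at 0.216.

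Some posterior genes were high on 1 array, Dlk1+Sca1- replicate 3, a pattern picked out after the values were seen and given without a test. That array was the highest of the 12 for 6 of 15 posterior genes, while it was the highest for 12.6% of all genes. Hoxd13, a gene of limb tips and genitals, read 6.46 there against 5.02 and 4.32 on the other Dlk1+Sca1- arrays and at most 4.83 elsewhere. Hoxc11, which patterns the hindlimb and lower spine, read 6.48 against 6.13 and 5.64, and 5.13 to 5.87 on all arrays of other populations. The remaining 4, Hoxa10, Hoxa13, Hoxb13 and Hoxc12, exceeded the next array by 0.02 to 0.24 and were all under the olfactory guide. The other 9 posterior genes were not highest there, and Hoxc13 read 4.80, as low as on any array. Between CD26+ and Dlk1+Sca1- the log2 difference of Hoxd13 was -1.01 (SE 0.41, adjusted p = 0.323), and -0.41 (SE 0.23, adjusted p = 0.561) without that array. For Hoxc11 it was -0.51 (SE 0.23, adjusted p = 0.369), and -0.32 (SE 0.23, adjusted p = 0.68) without it. CD26+ replicate 1 was in turn the highest of the 12 for 6 of 14 central genes, against 8.35% of all genes, with Hoxb8 at 6.96 there and at most 6.26 elsewhere.

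**Figure D4:**
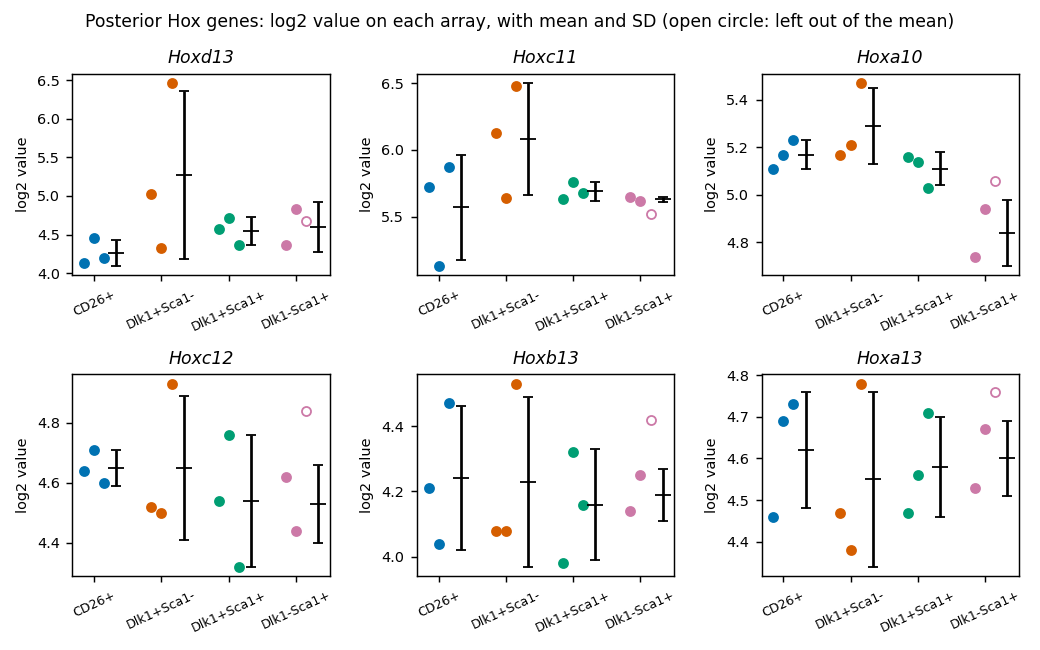
Log2 value of the 6 posterior Hox genes that were highest on Dlk1+Sca1- replicate 3, on each array (points, by population), with bars for the mean and SD of the arrays fitted and an open circle for the Dlk1-Sca1+ array left out. For Hoxd13 that array reads 6.46 and no other exceeds 5.02, while the other panels span less than 1.5 log2.

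Cofactors, regulators and positional factors were taken from lists chosen with earlier results of these data known. Of 9 listed cofactors 8 were measured, and 2, Meis1 and Meis2, were called, both higher in CD26+ than Dlk1+Sca1+, where 2.05% of all genes were called in that direction. Meis1 read 9.02, 8.54 and 8.73 on the CD26+ arrays and 8.12, 8.08 and 8.02 on the Dlk1+Sca1+ arrays, a log2 difference of 0.69 (SE 0.16, adjusted p = 0.0342). Meis2 differed by 0.75 (SE 0.18, adjusted p = 0.04). No Pbx gene measured was called. Of 25 measured regulators of Hox expression, 2 were called higher in CD26+ than in Dlk1+Sca1+, against the same 2.05%. Ezh2 differed by 0.88 (SE 0.15, adjusted p = 0.00429), and by -1.03 between Dlk1+Sca1+ and Dlk1-Sca1+ (SE 0.17, adjusted p = 0.00972), these comparisons again sharing arrays. It read 8.91 and 8.59 on the Dlk1-Sca1+ arrays fitted but 7.72 on the one left out, where the Dlk1+Sca1+ mean was 7.72. The size of the second difference therefore depends on leaving that array out. Gdf11, a secreted factor that sets the position of posterior Hox activity in the trunk, differed by 0.70 (SE 0.18, adjusted p = 0.0434). Ctcf, which separates active from silent parts of the clusters, was 0.71 higher in CD26+ than in Dlk1+Sca1- (SE 0.14, adjusted p = 0.0263), 1 of 25 regulators against 1.10% of all genes. Of 15 measured positional factors Emx2, a homeodomain gene of the brain, shoulder blade and kidney, was called, with a log2 difference of 1.03 between CD26+ and Dlk1+Sca1+ (SE 0.21, adjusted p = 0.0154), where 3.72% of all genes were called. Lnpk, which lies beside the Hoxd cluster and was chosen after its value was seen, was the only one of 18 measured neighbours called, at 0.88 between CD26+ and Dlk1+Sca1- (SE 0.19, adjusted p = 0.0445), against 1.10% of all genes.

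Of the RNAs made within the clusters that do not encode protein, 5 of 15 listed were measured and none was called in any comparison, with 0 of 5 at an unadjusted p under 0.05 in limma's test in each. Hotair, transcribed from the Hoxc cluster, had means of 5.29 ± 0.24 in CD26+, 5.26 ± 0.66 in Dlk1+Sca1-, 5.23 ± 0.12 in Dlk1+Sca1+ (SD, n = 3) and 5.05 ± 0.45 in Dlk1-Sca1+ cells (SD, n = 2). The probe set of Mir10b, whose mature form has the seed ACCCUGU, read 2.81 to 2.96 in CD26+, 2.45 to 3.44 in Dlk1+Sca1- and 2.18 to 4.78 in Dlk1+Sca1+ cells, and Dlk1+Sca1+ replicate 2 and the Dlk1-Sca1+ array left out (4.20) stood above the rest. Both Mir196a genes, with the seed AGGUAGU, had group means of 5.40 to 5.76 for Mir196a-1 and 4.10 to 5.01 for Mir196a-2. Mir615, with the seed CCGAGCC in its 3p form, had group means of 4.98 to 5.61. Of these 5 Mir196a-1 alone was above the olfactory guide, and whether the probe sets read the precursor or the mature form is not known here.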

How the data were processed

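Log2 expression values, 1 per probe set and array, were used as deposited by the authors. Their summarisation and normalisation steps are not stated in the sources used here. The submitters' processing notes name mm10. Background compresses the log2 differences of dim genes. Probe sets with 1 symbol in the platform annotation were kept, with the highest mean over the 12 arrays for genes with several, which left 22180 genes. Sequences came from RefSeq (GRCm38.p6). A withheld item is not reported here.

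One mean per population was fitted to 11 arrays (7 residual degrees of freedom) with limma 3.58.1 in R 4.3.3 (lmFit, then eBayes with mean trend and robust fitting, statmod 1.5.0), two-sided. Each comparison was adjusted on its own over all genes (Benjamini-Hochberg) and genes were called at 0.05. The fit was tested on simulated data. The p-values measure the spread between arrays labelled as biological replicates, whose number limits the precision.

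Members and gene lists were chosen with earlier results of these data known. Full statistics are given for each called Hox gene and, as fewer than 6 were called, for the 6 with the smallest F test p. Of the lists of cofactors, regulators and positional factors the called members are named, and of the lists of cell markers those called between CD26+ and Dlk1+Sca1+. Lists of cells other than fibroblasts covered muscle, endothelium, pericytes, leukocytes, keratinocytes, and Schwann cells with melanocytes. Alternatives were all 12 arrays, no trend or robust fitting, quantile normalisation, centring on array medians, only the groups compared, a replicate block, leaving out the 40% dimmest genes, the mean of all probe sets and leaving out each array.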

Additional observations from a re-analysis of the deposited data

How the results depend on the processing

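The number of Hox genes called between CD26+ and Dlk1+Sca1+ (2) was 1 with all 12 arrays and 1 with only the groups compared, 3 (with Hoxc6 added) without the 40% dimmest genes, and leaving out 1 array gave 0 to 5. Between Dlk1+Sca1+ and Dlk1-Sca1+ (0) it was 1, Hoxc6, without the 40% dimmest genes, and 0 to 1 when 1 array was left out. By the F test (0) it was 1, Hoxb2, with arrays centred on their medians and 1, Hoxb2, without the 40% dimmest genes, and 0 to 1 when 1 array was left out. The other 4 comparisons gave 0 under each alternative. Between CD26+ and Dlk1+Sca1+ the share of all genes called was 3.72%, against 3.11% with all 12 arrays and 3.66% with only the groups compared. It was 1.92% to 4.36% when 1 array was left out and 4.26% with a replicate block. Without the 40% dimmest genes it was 7.24% of 13308 genes, which included 5 anterior, 11 central and 7 posterior Hox genes. Fewer genes were tested without the dim ones, and the other causes were not tested. Replicate numbers are shared by the labels, but nothing says that they mark 1 mouse, and same-numbered arrays deviated from their group means with correlations of -0.05 to 0.14, over 0.1 in 2 of 15 pairs, and 8 of 11 arrays correlated best with their own number. With a replicate block 3 Hox genes, Hoxb2, Hoxb9 and Hoxc4, were called between CD26+ and Dlk1+Sca1+ and 0 in each other comparison. Of 570 recomputed medians of the family and its clusters, 532 moved by less than the spread between arrays. Without the 40% dimmest genes the medians between CD26+ and Dlk1+Sca1+ were 0.24 for the family, 0.34 for Hoxa, 0.39 for Hoxc and -0.16 for Hoxd. Another scaling moved the median of all genes by at most 0.05.

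With 2 or 3 arrays per population small differences were beyond reach, and 14 of 36 Hox genes lay under the olfactory guide, where differences are compressed.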
